A study of Mus musculus with 6 samples.

Results

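A line described in the labels as mouse aortic endothelial cells with a Ptbp1 knockout and a human PTBP1 cDNA (rescue) was set against the knockout line without the cDNA (KO), each without and with TNF. Defining endothelial markers were near 0 in these libraries, and Ptbp1 RNA in KO was not below that of the parental line, as given below. Libraries were assigned by the names of their deposited files, which gave 2 rescue and 2 KO libraries out of 6 in the series. Of 21674 genes, 12728 passed the filter on low counts, and 141602 splicing nodes had an estimated 20 reads or more in all 4 libraries. The labels describe a line named Fn AB+/-, immortalised with doxycycline-inducible SV40 (TetOn_SV40), expanded with doxycycline and then plated without it, and this holds for every library. By the labels the KO was a single-cell clone with a CRISPR deletion of Ptbp1, and they do not say whether the rescue line was cloned again. TNF was given at 30 ng/mL to 1 library per line. How long TNF was given is not stated in the labels.

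The file names and the labels gave different groups for 4 of the 6 libraries. The library named rescue is labelled KO_TNF, and the library named rescue with TNF is labelled Rescue_TNF. The library named KO is labelled Rescue, and the library named KO with TNF is labelled WT_TNF. The remaining pair, named basal and read here as the parental line, is labelled WT (without TNF by name) and KO (with TNF by name). Below, rescue, KO and parental refer to file names, and the comparison by labels is given separately near the end. With 1 library per line and treatment there were no replicate cultures, so each p-value sets the difference between lines against how unequal effects were across treatments and lines. With 1 line on each side, an effect of the cDNA and any other difference between the lines cannot be told apart.

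PTBP1 is an RNA-binding protein that recognises pyrimidine-rich stretches and mostly keeps nearby exons out of messenger RNA. It limits its own messenger RNA and that of its neuronal paralogue Ptbp2 by promoting the skipping of a short exon, which shifts the reading frame and exposes the transcript to nonsense-mediated decay. Interferon response genes encode antiviral proteins such as the 2'-5' oligoadenylate synthetases, and they are switched on through an element in their promoters called ISRE.

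The short exons of Ptbp1 and Ptbp2 are shown because they carry the check of PTBP1 activity, and the pair of Tpm2 exons and 5 further coding exons as examples whose psi, the fraction of transcripts that include them, lay over 0.3 apart between rescue and KO in both treatments. The examples were chosen after their values were seen, and others not shown differed more. Capitals mark the exon, and the 15 bases on either side in lower case are the neighbouring exons in the spliced transcript, written 5′ to 3′ from GENCODE vM21 transcripts on GRCm38.
Ptbp1 exon, chr10:79862014-79862047, plus strand: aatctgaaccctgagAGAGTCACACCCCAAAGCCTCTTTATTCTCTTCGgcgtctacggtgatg
Ptbp2 exon, chr3:119724612-119724645, minus strand: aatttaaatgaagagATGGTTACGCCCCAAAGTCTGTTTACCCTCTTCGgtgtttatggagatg
Tpm2 exon, chr4:43518644-43518719, minus strand: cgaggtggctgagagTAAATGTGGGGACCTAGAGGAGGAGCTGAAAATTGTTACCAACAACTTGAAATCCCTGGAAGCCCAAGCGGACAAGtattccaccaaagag
Tpm2 exon, chr4:43519003-43519078, minus strand: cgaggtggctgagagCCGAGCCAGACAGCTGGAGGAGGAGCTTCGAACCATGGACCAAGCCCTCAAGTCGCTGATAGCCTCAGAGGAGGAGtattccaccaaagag
Palld exon, chr8:61534858-61534908, minus strand: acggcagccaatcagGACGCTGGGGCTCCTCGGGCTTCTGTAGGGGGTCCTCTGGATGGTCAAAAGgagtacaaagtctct
Dpf2 exon, chr19:5903731-5903772, minus strand: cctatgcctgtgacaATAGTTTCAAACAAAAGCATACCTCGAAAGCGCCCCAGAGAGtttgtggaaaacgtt
Mef2d exon, chr3:88161781-88161801, plus strand: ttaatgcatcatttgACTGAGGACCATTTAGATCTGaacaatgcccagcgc
Ktn1 exon, chr14:47726471-47726554, plus strand: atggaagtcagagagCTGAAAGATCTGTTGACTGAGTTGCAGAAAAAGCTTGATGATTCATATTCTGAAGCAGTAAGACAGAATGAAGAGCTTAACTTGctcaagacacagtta
Myof exon, chr19:37969907-37969945, minus strand: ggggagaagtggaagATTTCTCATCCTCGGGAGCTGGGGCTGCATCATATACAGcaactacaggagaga

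The Ptbp1 and Ptbp2 exons are each 34 nt long, not a multiple of 3, and are identical at 26 of 34 positions (76.5%). The Tpm2 exons are each 76 nt long and identical at 41 of 76 positions (53.9%), and the 15 bases on either side are the same for both. The other 5 exons are multiples of 3, and none of the exons shown held an in-frame stop codon in the transcript used.

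Mouse Ptbp1 and its paralogue Ptbp2 were both lower in rescue than in KO. Ptbp2 stood at 67.66 CPM (read counts scaled to a common library size) in rescue and 76.56 in rescue with TNF, against 218.67 in KO and 191.80 in KO with TNF. The parental libraries had 38.24 and 37.85 CPM, so the rescue values lay between the KO and the parental values. Ptbp2 fell by 1.51 ± 0.11 on the log2 scale (SE; edgeR quasi-likelihood test over 6 libraries, Benjamini-Hochberg adjusted p = 0.00505). Mouse Ptbp1 had 173.59 and 186.52 CPM in rescue, against 387.76 and 424.53 CPM in KO, and it fell by 1.17 ± 0.09 (edgeR adjusted p = 0.00537). The parental libraries had 338.46 and 422.99 CPM of it, above both rescue libraries and not above KO, so the RNA level of the targeted gene does not set the libraries named KO apart as lacking it. Whether the deletion leaves a transcript that is still counted was not tested, and junction reads within the gene are given below. Whether reads of the human cDNA were assigned to mouse Ptbp1 was not tested. Ptbp3, the third paralogue (listed as Rod1), had 99.65 and 111.70 CPM in rescue against 108.10 and 107.68 CPM in KO, and it did not pass (log2 change -0.04 ± 0.17, edgeR adjusted p = 0.888). Per length, Ptbp2 was at 42.21 and 45.29 TPM in rescue against 127.88 and 106.05 TPM in KO, while Ptbp3 was at 29.43 and 31.30 against 29.90 and 28.16 TPM.

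Reads over the 34-nt exon of Ptbp1 itself showed more skipping in rescue than in KO. Of the junction reads that left the upstream exon for the 34-nt exon or past it, 17 of 59 skipped it in rescue (28.8%, 95% Wilson interval 18.8 to 41.4%). With TNF, 11 of 56 skipped it in rescue (19.6%, 11.3 to 31.8%). In KO the skipping reads were 9 of 248 (3.6%, 1.9 to 6.8%), and in KO with TNF they were 7 of 203 (3.4%, 1.7 to 6.9%). The intervals of the rescue libraries lay above those of the KO libraries in both treatments. Parental libraries had 23 of 156 (14.7%, 10.0 to 21.2%) and, with TNF, 13 of 216 (6.0%, 3.6 to 10.0%). Reads entering the exon from upstream were fewer than reads leaving it downstream in rescue (42 against 79, and 45 against 82 with TNF), while KO had 239 against 248 and, with TNF, 196 against 214, so a share set on the downstream side would be smaller in rescue. This exon was chosen after its values were seen, and the intervals cover counting error only, since the reads carried no molecular identifiers that the files show.

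In Ptbp2 the 34-nt exon was skipped by 8 of 77 reads in rescue (10.4%, 5.4 to 19.2%) and 3 of 59 in rescue with TNF (5.1%, 1.7 to 13.9%). In KO, 4 of 244 reads skipped it (1.6%, 0.6 to 4.1%), and in KO with TNF 3 of 205 did (1.5%, 0.5 to 4.2%). The interval of rescue lay above that of KO without TNF, and the intervals overlapped with TNF. Parental libraries skipped the exon in 16 of 39 reads (41.0%, 27.1 to 56.6%) and 13 of 42 reads (31.0%, 19.1 to 46.0%), above every rescue value.

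**Figure D1:**
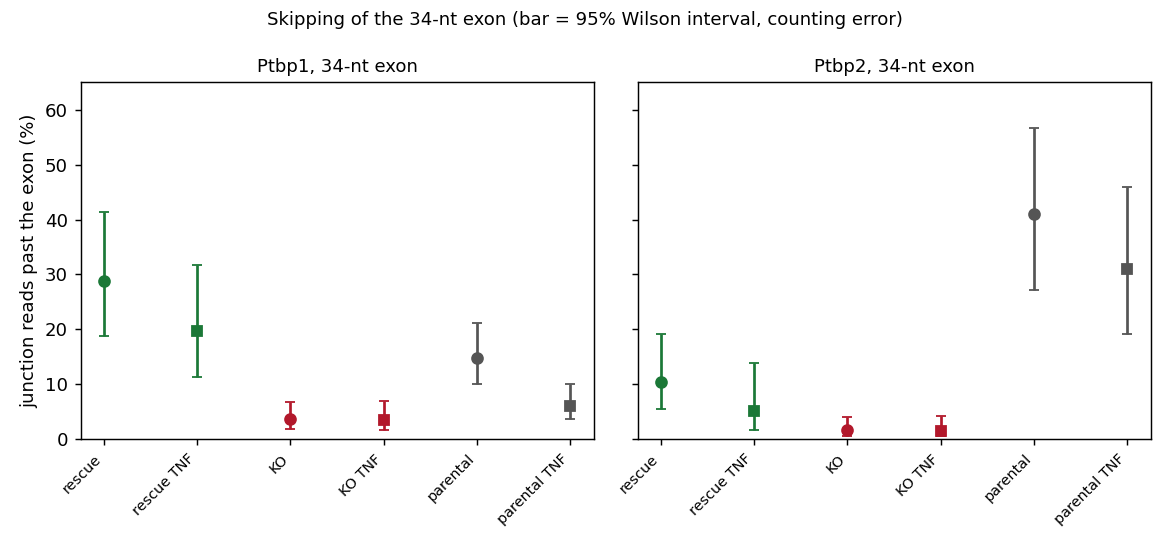
Percentage of junction reads that passed over the 34-nt exon of Ptbp1 (left) and Ptbp2 (right) in each of the 6 libraries, with 95% Wilson intervals that cover counting error; circles are without and squares with TNF. For Ptbp1, rescue sits at 28.8% and 19.6%, against 3.6% and 3.4% in KO.

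Within Ptbp1, 2 junctions set the KO libraries apart from the rescue libraries. A junction that skips from 79858824 to 79860824 on chr10 and is marked in the files as not annotated had 0 reads in both rescue libraries, against 36 reads in KO and 41 in KO with TNF. It made up 1.07% (0.78 to 1.48%) and 1.2% (0.89 to 1.62%) of the Ptbp1 junction reads counted in KO. For the 0 reads, the upper 95% Wilson limit was 0.4% in rescue and 0.37% in rescue with TNF. Parental libraries also had 0. The annotated junction from 79859712 to 79859781 had 0 reads in both rescue libraries, against 57 and 93 reads in KO and 359 and 604 in parental libraries. It made up 1.7% and 2.72% of the Ptbp1 junction reads counted in KO, against 12.57% and 14.58% in parental libraries. The junction just before it, from 79859522 to 79859602, had 67 and 78 reads in rescue, against 207 and 242 in KO. The unannotated junction was therefore not detected in the line that the design text describes as derived from the KO clone. Whether the KO and rescue libraries came from cells with the same Ptbp1 alleles was not tested.

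Across all genes, 1246 rose (9.79% of those tested) and 1355 fell (10.6%) in rescue relative to KO at an edgeR adjusted p under 0.05. Leaving out the library named rescue or the one named rescue with TNF ended all of these calls (edgeR, 0 calls each, with 2425 and 2273 genes at an unadjusted p under 0.05), while leaving out any of the other 4 left 2160 to 2683. By size alone, 480 genes (3.77%) were at least 2-fold higher and 429 (3.37%) at least 2-fold lower in rescue in both treatments. The median fitted log2 change over all tested genes was 0.01.

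Genes of the interferon response were lower in rescue than in KO. Of 55 tested members, 22 fell, 0 rose and 33 did not pass, against 10.6% of all genes that fell. Their median log2 change was -2.35, and 35 of the 55 were at least 2-fold lower in both treatments, against 3.37% of all genes. The median ratio of rescue to KO was -2.93 (log2) without TNF and -1.44 with TNF. As a sum over the 56 listed genes, the level was 1334.5 CPM in rescue and 3994.6 CPM in rescue with TNF, against 6758.0 CPM in KO and 7706.8 CPM in KO with TNF. The parental libraries had 1478.6 CPM without and 9725.5 CPM with TNF.

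Oas1a, which makes the second messenger that activates RNase L, had 0.27 and 3.27 CPM in rescue, against 49.33 and 69.29 CPM in KO (log2 change -5.69 ± 1.04, edgeR adjusted p = 0.027). Its level in parental cells was 2.59 CPM without and 42.80 CPM with TNF, so the rescue library with TNF lay below its parental counterpart. The neighbouring gene Oas1g, of similar sequence, had 0.09 and 0.35 CPM in rescue, against 11.17 and 17.22 CPM in KO, and reads of such close copies can be split between them. Ifi44 had 1.20 and 9.02 CPM in rescue, against 117.90 and 147.28 CPM in KO (log2 change -5.57 ± 1.26, edgeR adjusted p = 0.0415). Ifi27l2a had 1.47 and 2.03 CPM in rescue, against 68.97 and 45.08 CPM in KO (-5.08 ± 0.62, edgeR adjusted p = 0.0131). In all 4 genes both rescue libraries lay below both KO libraries. The sizes depend on single libraries: the log2 change of Oas1a was -4.36 without the library named KO, -7.84 without KO with TNF and -6.91 without rescue with TNF. For Ifi44 it was -3.76 and -7.93, and for Ifi27l2a -4.11 and -6.03, without KO and without KO with TNF.

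Some regulators of the response also fell. Irf7, the transcription factor that amplifies interferon production, had 4.54 and 21.51 CPM in rescue, against 97.76 and 104.69 CPM in KO (-3.52 ± 0.81, edgeR adjusted p = 0.0421). Irf9, a subunit of the factor that binds ISRE, fell by 1.90 ± 0.35 (edgeR adjusted p = 0.0275). Usp18, a feedback inhibitor of the interferon receptor, had 2.27 and 8.62 CPM in rescue, against 82.50 and 101.45 CPM in KO. The double-stranded RNA sensor Ifih1 (-2.60 ± 0.52) and the kinase Eif2ak2 (-1.35 ± 0.28) fell as well, at edgeR adjusted p of 0.0332 and 0.0349. Isg15, Ifit1, Ifit3 and Stat2 did not pass. Their log2 changes were -3.57, -3.57, -3.49 and -1.46.

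The stretch of 80 bases before the start of Oas1g and Oas1a is shown because both genes fell and both hold the ISRE letters. Sequences are from RefSeq promoters (GRCm38.p6), with capitals for overlapping matches to GAAA, any 2 bases and GAAA again, searched on both strands.
Oas1g, chr5:120887614-120887693, minus strand: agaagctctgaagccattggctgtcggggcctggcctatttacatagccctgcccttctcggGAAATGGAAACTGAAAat
Oas1a, chr5:120907526-120907605, minus strand: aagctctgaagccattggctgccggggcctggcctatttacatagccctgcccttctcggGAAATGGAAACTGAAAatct
Promoters of 300 bases (250 before to 50 after the start) were found for 43 of the 56 listed genes, and 20 of these held this pattern, against 1131 of 32851 promoters (3.44%) overall. Of 16 promoters of members that fell, 7 held it. The match describes these letters and not binding.

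Targets of TNF and NF-kB, which include adhesion molecules, chemokines and inhibitors of NF-kB itself, were compared in the same way. The median log2 ratio of the 41 tested members was 0.02 without TNF and 1.25 with TNF. Over both treatments 5 members rose, 0 fell and 36 did not pass, against 9.79% of all genes that rose. Their summed level was 1879.7 CPM in rescue and 9331.5 CPM in rescue with TNF, against 2343.3 CPM in KO and 4259.0 CPM in KO with TNF. The parental libraries had 2287.4 and 15715.2 CPM. Whether the difference between treatments exceeds chance was not tested, as each ratio is 1 library against 1.

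Birc3, an inhibitor of apoptosis, had 7.74 and 32.56 CPM in rescue, against 3.74 and 8.41 CPM in KO (log2 change 1.55 ± 0.30, edgeR adjusted p = 0.0296). Ptgs2, which makes prostaglandin precursors, had 14.37 and 67.79 CPM in rescue, against 8.86 and 19.85 CPM in KO (1.27 ± 0.26, edgeR adjusted p = 0.0347). Tnip3, an inhibitor of NF-kB signalling, had 0.27 and 13.28 CPM in rescue, against 0.15 and 2.43 CPM in KO (2.36 ± 0.45, edgeR adjusted p = 0.0292). Without the library named KO with TNF the log2 change was 0.11 for Tnip3 and 0.95 for Birc3. The neutrophil chemokine Cxcl5 had 0.62 and 5.01 CPM in rescue and 0 in both KO libraries. The acute-phase gene Saa3 had 0 and 5.15 CPM in rescue, against 0 and 0.25 CPM in KO, so its call rests on the pair given TNF, and without the library named KO with TNF its sign turned (-3.33). Vcam1, an adhesion molecule for leukocytes, had 67.09 and 871.96 CPM in rescue, against 46.52 and 217.69 CPM in KO, and did not pass (edgeR adjusted p = 0.085). The monocyte chemokine Ccl2 had 50.36 and 1639.37 CPM in rescue, against 33.13 and 380.47 CPM in KO, and did not pass either (edgeR adjusted p = 0.112). The plot of ratios without and with TNF shows the split between these lists.

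**Figure D2:**
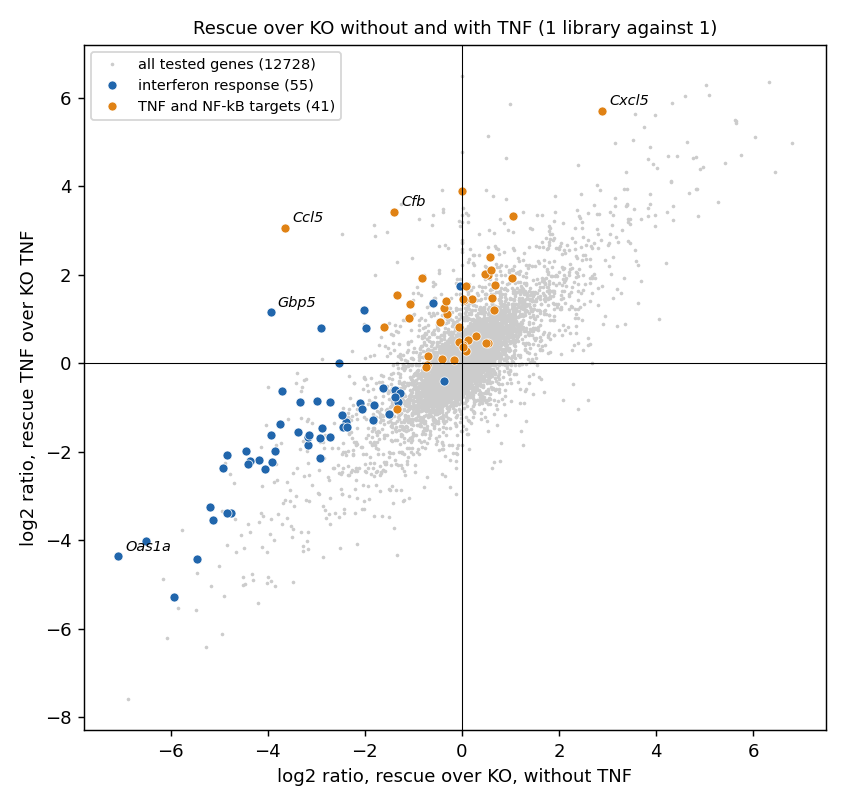
Log2 ratio of rescue to KO without TNF (x axis) and with TNF (y axis), 1 library against 1, for 12728 tested genes in grey, 55 interferon response genes in blue and 41 TNF and NF-kB targets in orange. Interferon genes have medians of -2.93 and -1.44, while the TNF targets have medians of 0.02 and 1.25.

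Genes of the extracellular matrix were among the largest differences in each direction. Tgfbi, a secreted protein that links collagens to integrins, had 1.29 and 0.69 CPM in rescue, against 162.74 and 151.69 CPM in KO (log2 change -7.35 ± 0.34, edgeR adjusted p = 0.00267). Parental cells had 76.63 and 36.74 CPM, so both rescue libraries lay far below both other lines. Vcan, a large proteoglycan, had 31.90 and 38.50 CPM in rescue, against 273.36 and 257.14 CPM in KO (-2.91 ± 0.13, edgeR adjusted p = 0.00267), and the parental libraries held 568.05 and 507.83 CPM. Of 32 laminins and other matrix glycoproteins, 5 rose and 5 fell, against 9.79% and 10.6% of all genes. Fibulin Fbln2 rose by 1.52 ± 0.10 (edgeR adjusted p = 0.0043), with 1809.23 and 1237.43 CPM in rescue, against 673.43 and 404.32 CPM in KO. Ltbp2, which binds microfibrils, rose by 1.39 ± 0.15 (edgeR adjusted p = 0.0105). Fibronectin, Fn1, fell by 0.73 ± 0.16 (edgeR adjusted p = 0.0374).

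Of 21 tested collagens, 0 rose, 8 fell and 13 did not pass, against 9.79% and 10.6% of all genes that rose and fell, with a median log2 change of -0.26. Col4a6, a basement membrane chain, had 3.11 and 2.58 CPM in rescue, against 18.46 and 14.84 CPM in KO (-2.55 ± 0.13, edgeR adjusted p = 0.0028). Col18a1, the source of endostatin, had 35.50 and 73.44 CPM in rescue, against 167.96 and 286.87 CPM in KO (-2.11 ± 0.11, edgeR adjusted p = 0.0028). The fibrillar chains Col3a1 (-1.81 ± 0.31) and Col11a1 (-1.37 ± 0.27) fell at edgeR adjusted p of 0.024 and 0.0305. For these, the log2 ratio with TNF was -2.29 and -1.89, against -1.26 and -0.83 without, and without the library named KO with TNF the change of Col3a1 was -1.22.

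Among 19 tested matrix metalloproteinases, related proteases and their inhibitors, the TIMPs, 5 rose and 1 fell, against 9.79% and 10.6% of all genes. Mmp2, Mmp3, Mmp13, Mmp15 and the procollagen peptidase gene Adamts2 rose, Mmp16 fell, and the inhibitor genes Timp1, Timp2 and Timp3 did not pass. Mmp2, a gelatinase, had 48.85 and 22.00 CPM in rescue, against 0.34 and 0.61 CPM in KO (6.14 ± 0.41, edgeR adjusted p = 0.00464). The parental libraries had 233.61 and 180.55 CPM, above both rescue libraries. Mmp3, a stromelysin, had 3.16 and 65.71 CPM in rescue, against 0.34 and 1.16 CPM in KO (5.41 ± 0.51, edgeR adjusted p = 0.00798). Mmp13, a collagenase, had 0.09 and 15.81 CPM in rescue, against 0.15 and 1.32 CPM in KO, so its rise (edgeR adjusted p = 0.0409) comes from the pair given TNF and turned to -0.92 without the library named KO with TNF. Mmp16, a membrane-bound member, fell by 1.02 ± 0.11 (edgeR adjusted p = 0.0113). Without KO and without KO with TNF, the change of Mmp2 was 5.40 and 6.94, and without KO with TNF that of Mmp3 was 3.03. Among 10 tested small leucine-rich proteoglycans, Dcn and Lum rose, Podn fell and 7 did not pass, against 9.79% and 10.6% of all genes. Dcn had 2.62 and 38.31 CPM in rescue, against 0.39 and 4.10 CPM in KO, and Lum had 3.83 and 11.60 CPM, against 0.10 CPM in each KO library.

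**Figure D3:**
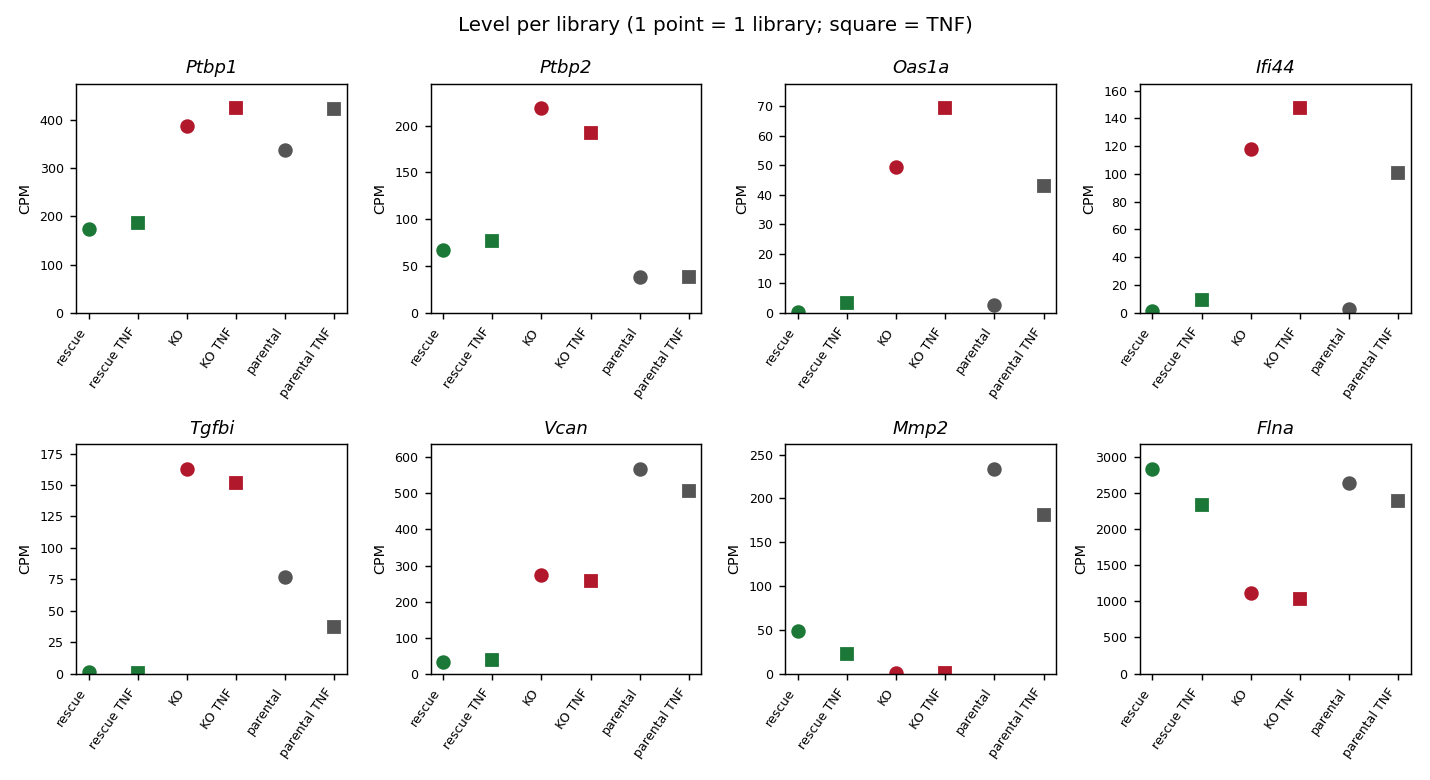
Level in CPM (y axes from 0) of 8 genes in each library, in the order rescue, KO and parental, with circles for no TNF and squares for TNF. Ptbp1, Ptbp2, Oas1a, Ifi44, Tgfbi and Vcan are lower in both rescue libraries than in both KO libraries, and Mmp2 and Flna are higher.

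Among called genes that averaged at least 5 CPM over the 4 libraries and had the same sign in both treatments, the 12 largest falls included Tgfbi, Oas1g, Slfn8, Cnn1, Oas1a, Ifi44, Ifi27l2a, Hspb1, Catsperd (listed as Tmem146), Cygb and Nol3. The small heat shock protein gene Hspb1 had 0.49 and 0.64 CPM in rescue, against 18.76 and 17.68 CPM in KO (log2 change -5.01 ± 0.25, edgeR adjusted p = 0.0028). Nol3, which represses apoptosis, had 0.93 and 0.50 CPM in rescue, against 23.43 and 18.84 CPM in KO. Its log2 change was -4.87, but -1.36 in the second deposited quantification. The globin gene Cygb fell by 4.97 ± 0.32 and the interferon-linked Slfn8 by 5.90 ± 1.06, at edgeR adjusted p of 0.00449 and 0.0266. The change of Cygb was -6.22 without the library named rescue, and that of Slfn8 was -4.79 without KO and -7.99 without KO with TNF. Parental levels stood near those of KO for Hspb1 (15.51 and 21.83 CPM) and near those of rescue for Catsperd (0.51 and 0.14 CPM).

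The 12 largest rises included Mmp2, Hoxc13, Mmp3, Nrk, Itm2a, Fbn2, Mageh1, Nsg1, Adam23, Serpina3n and Adcyap1r1. Hoxc13, a homeobox transcription factor, had 10.59 and 16.35 CPM in rescue, against 0.34 and 0.15 CPM in KO (5.69 ± 0.39, edgeR adjusted p = 0.00484). It was at 0.20 and 0.19 CPM in parental cells, so the rescue line stood apart from both other lines. Itm2a had 27.98 and 19.97 CPM in rescue, against 0.94 and 0.71 CPM in KO (4.85 ± 0.16, edgeR adjusted p = 0.00209), and 3.56 and 2.69 CPM in parental cells. Adcyap1r1, the receptor of the neuropeptide PACAP, had 53.52 and 46.43 CPM in rescue, against 2.56 and 3.85 CPM in KO, and 89.65 and 53.91 CPM in parental cells. The fibrillin gene Fbn2 rose by 4.80 ± 0.46 (edgeR adjusted p = 0.00815). Serpina3n, a protease inhibitor (log2 change 4.30, and 2.00 to 5.84 without 1 library), had 1.47 and 31.96 CPM in rescue, against 0.69 and 0.46 CPM in KO, and its ratio was 0.99 (log2) without TNF and 5.86 with TNF. Without KO and without KO with TNF, the change was 6.67 and 4.94 for Hoxc13 and 3.71 and 5.61 for Fbn2, and without the library named rescue that of Hoxc13 was 6.37.

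Of 30 genes of DNA replication and mitosis, 1 rose, 11 fell and 18 did not pass, against 9.79% and 10.6% of all genes that rose and fell, with a median log2 change of -0.33 and none of them 2-fold apart in both treatments. Cyclin Ccnb2 had 25.22 and 23.34 CPM in rescue, against 50.90 and 43.35 CPM in KO (-0.95 ± 0.10, edgeR adjusted p = 0.0106). Cdc20, an activator of the anaphase-promoting complex, fell by 0.81 ± 0.10, cyclin Ccna2 by 0.80 ± 0.11 and the spindle motor Kif11 by 0.80 ± 0.10, at edgeR adjusted p of 0.0131, 0.0166 and 0.0139. Tyms, which makes thymidylate, rose by 0.39 ± 0.08 (edgeR adjusted p = 0.0326). The summed level of the list was 3918.7 and 3936.5 CPM in rescue, against 4642.7 and 4555.0 CPM in KO and 2260.2 and 1863.3 CPM in parental cells.

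Among 24 p53 targets and inhibitors of cyclin-dependent kinases, 3 rose and 5 fell, against 9.79% and 10.6% of all genes. Cdkn1c, an imprinted inhibitor, had 0 CPM in both rescue libraries, against 1.67 and 1.06 CPM in KO. Pmaip1, a pro-apoptotic BH3 protein, had 0.13 and 0.35 CPM in rescue, against 3.94 and 4.56 CPM in KO (-4.15 ± 0.33, edgeR adjusted p = 0.00607), while Cdkn2b rose by 0.89 ± 0.15 (edgeR adjusted p = 0.0234). Of 18 cholesterol genes 3 rose and 2 fell, against the same 9.79% and 10.6%, with a median of 0.35. Lss, a cyclase of sterol synthesis, rose by 1.20 ± 0.17 and Cyp51, a demethylase of the same pathway, fell by 0.83 ± 0.17, at edgeR adjusted p of 0.0177 and 0.0349. Of 20 genes of the unfolded protein and integrated stress response 1 rose and 7 fell, against 9.79% and 10.6%, with a median of -0.33. Herpud1, a factor of protein degradation at the endoplasmic reticulum, fell by 1.00 ± 0.08 (edgeR adjusted p = 0.00589), whereas the chaperone gene Dnajb9 rose by 0.98 ± 0.13 (edgeR adjusted p = 0.0159).

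Neuronal genes are of interest because Ptbp2 acts in neurons. Of 17 tested, 2 rose, 9 fell and 6 did not pass, against 9.79% and 10.6% of all genes, with a median log2 change of -0.49. Rab3b, a GTPase of secretory vesicles, had 0.98 and 0.74 CPM in rescue, against 11.77 and 7.75 CPM in KO (-3.50 ± 0.25, edgeR adjusted p = 0.00511). The SNARE gene Snap25 had 0 and 0.05 CPM in rescue, against 1.18 and 1.72 CPM in KO. The motor gene Kif1a had 8.23 and 6.79 CPM in rescue, against 0.10 and 0.20 CPM in KO, and rose by 5.59 ± 0.38 (edgeR adjusted p = 0.00484; 8.11 in the second quantification and 6.24 without KO with TNF). Map2 (listed as Mtap2), which binds microtubules in dendrites, fell by 1.44 ± 0.22 (edgeR adjusted p = 0.0191). Among 38 tested splicing regulators, the brain splicing factor Nova1 and the titin splicing factor Rbm20 rose, while Ptbp1, Ptbp2, Mbnl1 and Celf1 fell and 32 did not pass, so 2 rose and 4 fell, near or below the 9.79% and 10.6% of all genes. Nova1 had 4.85 and 5.25 CPM in rescue, against 1.13 and 0.76 CPM in KO, and Mbnl1 fell by 0.81 ± 0.19 (edgeR adjusted p = 0.0437).

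**Figure D4:**
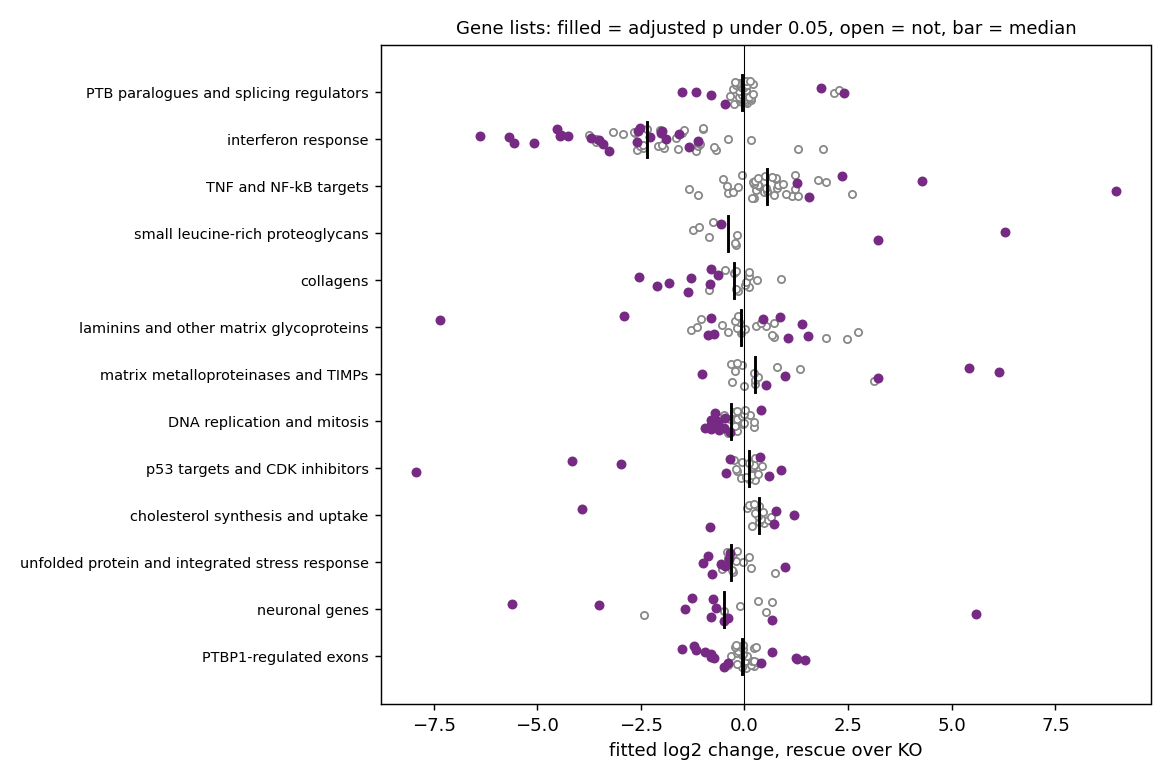
Fitted log2 change of rescue over KO (x axis) for every tested member of 13 gene lists, with filled points for an edgeR adjusted p under 0.05, open points for the rest and a bar at the list median. The interferon list has its median at -2.35 and the TNF and NF-kB list at 0.55. The points furthest out, Cxcl5 and Cdkn1c, are genes at 0 CPM in both libraries of 1 line, whose fitted change is no bound.

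The labelled cell type was checked against markers. Of 18 endothelial markers 11 were under 1 CPM in all 4 libraries, and among the defining ones Cdh5 was at 0.27 and 1.29 CPM in rescue, against 0 and 0.61 CPM in KO, while Cldn5 was at 0 throughout and Pecam1 under 1 CPM. Eng was at 273.41 and 314.92 CPM in rescue, against 257.75 and 273.14 CPM in KO, and Cav1 at 499.50 and 315.56 CPM in rescue, against 516.05 and 665.11 CPM in KO. The fibroblast-expressed Col1a1 stood at 13345.15 and 6185.06 CPM in rescue, against 11095.04 and 7272.45 CPM in KO, higher in rescue without TNF and lower with TNF. None of these 3 passed. Among marker genes of 6 cell types, Egfl7 (1 of 11 endothelial markers tested) and Cnn1 (1 of 9 smooth muscle) fell. So did Fcgr3 (1 of 5 blood), Krt19 (1 of 2 epithelial) and Tnnt2 and Nkx2-5 (2 of 4 cardiac). Those that rose were Lum and Dcn (2 of 10 fibroblast). Of all genes, 10.6% fell and 9.79% rose. Egfl7 had 1.20 and 1.04 CPM in rescue, against 6.55 and 5.57 CPM in KO. Cnn1, a smooth muscle calponin, had 0.58 and 0.10 CPM in rescue, against 20.77 and 13.57 CPM in KO, while Acta2 and Tagln did not pass. Nkx2-5, a cardiac homeobox factor, had 0.04 and 0.05 CPM in rescue, against 8.12 and 6.69 CPM in KO. The cardiac marker Gata4 went the other way and did not pass. It had 35.46 and 28.35 CPM in rescue, against 29.68 and 20.82 CPM in KO, and made up most of the cardiac sum in rescue. Krt19 had 1.11 and 0.59 CPM in rescue, against 19.30 and 19.50 CPM in KO. Blood markers Ptprc, Cd3e and Ms4a1 were at 0 in all 4, and blood markers summed to 16.0 and 20.2 CPM in rescue, against 18.6 and 23.4 CPM in KO. Endothelial markers summed to 819.4 and 670.7 CPM in rescue, against 790.5 and 939.8 CPM in KO, smooth muscle markers to 1663.6 and 918.7, against 1558.6 and 1149.3 CPM, and fibroblast markers to 15119.9 and 7233.6, against 12076.1 and 7888.8 CPM. Epithelial markers summed to 1.7 and 0.8 CPM in rescue, against 20.1 and 19.7 CPM in KO, and cardiac markers to 44.0 and 37.7, against 55.7 and 61.1 CPM. Whether these markers have a part in the differences above was not tested, and fewer cells of a type cannot be told apart from less RNA per cell.

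Splicing was read from nodes, parts of genes between neighbouring splice sites, each with a psi value from 0 to 1 for the fraction of transcripts that include it. The planned limma test on log2 odds called 39 of 141602 nodes (0.0275%; 20 higher and 19 lower in rescue), of which 38 lay at transcript starts or ends. The single cassette exon among them is not described further here. All 39 had an adjusted p of 0.0489, and every fit without 1 library called 0. At an unadjusted p under 0.05 there were 13490 nodes. Exons are therefore described by size with no test, by a rule set after the data were seen: psi at least 0.2 apart in the same direction in both treatments.

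By that rule, 132 of 94030 cassette exons, alternative acceptors, alternative donors and retained introns were lower in rescue (0.14%) and 92 were higher (0.0978%). Cassette exons made up 107 of the lower and 60 of the higher, and all 12 retained introns were higher. Of the 224 nodes, 150 had 95% Wilson intervals in both rescue libraries that did not overlap those of either KO library, which covers counting error only. The nodes were chosen by these same psi values, so this is a description and no independent support. TNF moved 34 nodes by the same measure in both lines. At the edge of the rule, the smaller of the 2 differences was 0.2 for an exon of Mark3 and 0.201 for an intron of Ankle1, and it was 0.199 for an exon of B4galt7 just outside.

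Length and reading frame were not used by the rule and are given as a description, with no test. Of the 107 cassette exons lower in rescue, 90 had a length divisible by 3 (84.1%), against 36 of 60 (60.0%) of those higher in rescue and 1879 of 3745 (50.2%) of cassette exons with a mean psi of 0.05 to 0.95. Exons of 3 to 27 nt numbered 22 (20.6%) among the lower and 4 (6.7%) among the higher, against 160 (4.3%) of the variable exons. The nodes lay in 183 genes. Of the 149 in the gene-level test, 48 were called there (32.2%, against 20.4% of all tested genes). These genes needed a node with 20 reads or more in all 4 libraries. The share over all genes was not matched for that, so the 2 shares do not show a link between splicing and level.

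Tpm2, which encodes beta-tropomyosin and is a classic PTBP1 target, exchanged the 2 exons shown above. The exon at chr4:43518644-43518719 had a psi of 0.369 in rescue (0.345 to 0.395) and 0.409 in rescue with TNF, against 0.940 (0.929 to 0.949) in KO and 0.922 in KO with TNF. The alternative exon at chr4:43519003-43519078 had 0.657 (0.635 to 0.679) and 0.624 in rescue, against 0.072 (0.058 to 0.089) and 0.096 in KO. Parental values lay between, at 0.592 and 0.517 for the first and 0.439 and 0.506 for the second. Near the end of the gene, an alternative acceptor part of 162 nt had 0.294 and 0.281 in rescue, against 0.937 and 0.923 in KO. At the gene level Tpm2 fell by 1.21 ± 0.17 on the log2 scale (edgeR adjusted p = 0.0171). In Tpm3, a related tropomyosin gene, a 76-nt exon had 0.845 and 0.924 in rescue, against 0.548 and 0.622 in KO.

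Examples of exons lower in rescue follow, given one by one with no theme tested. In Palld, whose protein palladin crosslinks actin, the 51-nt exon had a psi of 0.066 (0.043 to 0.097) and 0.055 in rescue, against 0.715 (0.675 to 0.752) and 0.646 in KO. Phldb2, which anchors microtubules near focal adhesions, included its 183-nt exon at 0.266 and 0.337 in rescue, against 0.917 and 0.895 in KO and 0.028 and 0.021 in parental cells. The 18-nt exon of Ctnnd1, or p120 catenin, a partner of cadherins, had 0.439 and 0.499 in rescue, against 0.916 and 0.919 in KO. For that exon the deposited junction counts assigned to the gene held 0 reads in both rescue libraries and 1 and 2 inclusion reads in KO. They do not bear out its psi, and the exon is weaker evidence than the other exons in this paragraph. A 91-nt exon of the scaffold gene Magi3 had 0.273 and 0.282 in rescue, against 0.902 and 0.867 in KO. In each of these genes both rescue libraries lay below both KO libraries.

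The 42-nt exon of Dpf2, a subunit of BAF chromatin remodelling complexes, had 0.122 (0.082 to 0.184) and 0.103 in rescue, against 0.666 (0.608 to 0.716) and 0.665 in KO. The 21-nt exon of the transcription factor gene Mef2d had 0.094 and 0.036 in rescue, against 0.538 and 0.481 in KO. The 104-nt exon of Pbrm1, a chromatin remodelling subunit, had 0.484 and 0.334 in rescue, against 0.920 and 0.928 in KO. The 78-nt exon of Kansl3, of a histone acetyltransferase complex, had 0.138 and 0.160 in rescue, against 0.729 and 0.595 in KO. A 34-nt exon near the start of Ptbp3 had 0.266 and 0.204 in rescue, against 0.521 and 0.728 in KO. The largest fall was in Akap13, an anchoring protein for kinases, where a 66-nt exon had 0.272 and 0.170 in rescue, against 1 and 0.842 in KO, on only 22 to 52 reads per library.

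Exons included more often in rescue were led by Tpm2, Dclk2 and Scarb1. The Dclk2 exon rests on only 31 and 22 reads in rescue, against 42 and 37 in KO. In Scarb1, the HDL receptor gene, the 129-nt exon had 0.808 (0.776 to 0.837) and 0.750 in rescue, against 0.289 (0.240 to 0.347) and 0.299 in KO. The 84-nt exon of Ktn1, which encodes the kinesin-binding protein kinectin, had 0.658 and 0.595 in rescue, against 0.145 and 0.147 in KO. Ptk2b, a focal adhesion kinase relative, included its 126-nt exon at 0.923 and 0.951 in rescue, against 0.435 and 0.521 in KO. The 39-nt exon of Myof, a ferlin of the plasma membrane, had 0.787 and 0.744 in rescue, against 0.357 and 0.322 in KO. Parental values for Scarb1, Ktn1 and Myof were 0.868, 0.626 and 0.790 without TNF, closer to rescue than to KO.

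**Figure D5:**
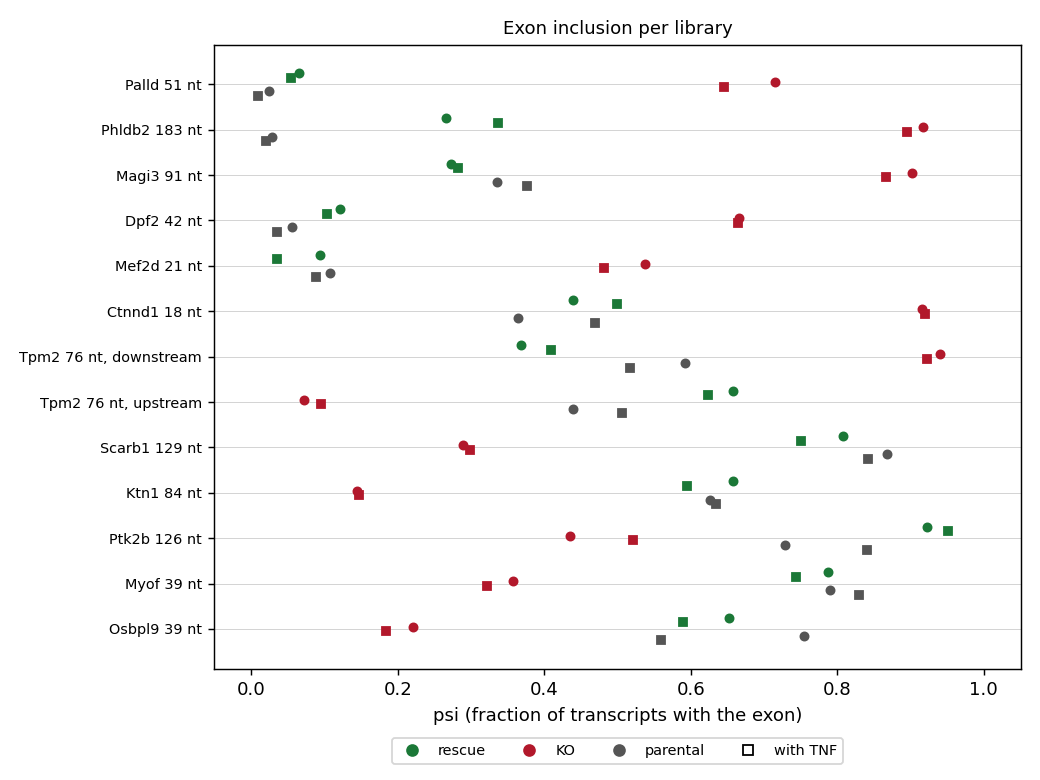
psi (x axis, 0 to 1) of 13 exons in each library, coloured by line, with circles for no TNF and squares for TNF. The upper 7 exons are lower in rescue than in KO and the lower 6 are higher, as in Palld (0.066 and 0.055 against 0.715 and 0.646) and Ktn1 (0.658 and 0.595 against 0.145 and 0.147).

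Among 35 genes known from earlier work to hold PTBP1-regulated exons, 34 had covered nodes. Of their 609 nodes, 19 in 10 genes were at least 0.2 apart in both treatments (3.12%, against 0.238% of all such nodes), 14 lower and 5 higher in rescue. Besides Tpm2, Tpm3, Ktn1, Ctnnd1, Mef2d and Ptbp3 these were in Lrrfip1, Exoc7, Kif21a and Gabbr1. Gabbr1, a GABA receptor gene, included a 151-nt exon at 0.499 and 0.475 in rescue, against 0.984 and 0.954 in KO, and its gene level fell by 0.81 ± 0.10 (edgeR adjusted p = 0.0144). Lrrfip1 held 6 of the 19 nodes, which are neighbouring exons of 1 gene and not independent of each other. Tpm2 and Gabbr1 also held more than 1 node each, to which the same applies. The list was chosen with earlier results of these data known, so the share of 3.12% is a description and no independent support. At the gene level 5 members of the list rose and 9 fell, against 9.79% and 10.6% of all genes. The filamin gene Flna, whose protein crosslinks actin, rose by 1.27 ± 0.09 on the log2 scale (edgeR adjusted p = 0.00484). It had 2835.76 and 2340.81 CPM in rescue, against 1115.98 and 1029.42 CPM in KO.

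With the libraries grouped by their labels, hardly any gene passed for Rescue against KO. By file name, the pair labelled KO holds parental with TNF and rescue, so these groups mix lines. The labels also place TNF differently. Parental with TNF, untreated by its label, held 2038.27 CPM of Ccl2 and 105.61 CPM of Saa3. Rescue, given TNF by its label, held 50.36 and 0 CPM. A low count of calls between mixed groups does not show that differences were absent. By edgeR 0 of 12728 genes were called with 27 at an unadjusted p under 0.05. DESeq2 called 3, with 65 below that p, all lower in libraries labelled Rescue. They included Nynrin (-3.70) and Rhbdf2 (-5.76), named because the count is small. Ptbp2 was higher by 1.70 on the log2 scale in the libraries labelled Rescue, Ptbp1 was at -0.03, Oas1a at 0.77 and Tgfbi at 1.55, each at an edgeR adjusted p of 1.

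The 6 libraries held 19582761 to 21609245 expected counts and 14729518 to 16886361 junction reads, and TMM factors ranged from 0.967 to 1.041. No library stood apart in depth.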

How the data were processed

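RNA was sequenced in 6 libraries. The deposited gene levels were expected counts and TPM values, made with RSEM per the submitters' processing notes, which name no version. Aligner and build: not given in the sources used here. In the library named KO these were per transcript and were summed by gene. The authors also deposited a second set of estimated counts per gene, psi per splicing node as a fraction, the read coverage behind it as a signal, and counts of reads per splice junction, per the file headers. Of 173278 cassette nodes, 99.77% shared an edge with GENCODE vM21 exons, so coordinates are GRCm38.

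Expected counts were rounded, and a row without a gene name (0.073 to 0.093% of counts) was dropped. Genes were tested with edgeR 4.0.16 (R 4.3.3; TMM, filterByExpr, quasi-likelihood, adjusted p under 0.05) in an additive model of line and TNF over 6 libraries, with 2 residual degrees of freedom. The SE is the log2 change divided by the square root of F and restates the test; for genes near 0 CPM it may lie below the error of counting. CPM are scaled by TMM, except sums over lists, untested genes and junctions. Single-library ratios used a prior count of 2. Nodes with 20 reads were tested with limma 3.58.1 on log2 odds (offset 0.5, psi difference of 0.1). Both tests were tried on simulated data, where the node test recovered the direction of changes but called none of them. Older symbols were matched through RefSeq synonyms.

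Named genes were Ptbp1, Ptbp2, Ptbp3, Oas1a and Tgfbi, the 12 largest rises and falls, and up to 4 called members of each list with the largest change; others are given as list members. Exons were to be named among called nodes; as only 1 cassette exon was called, they were named among nodes past the size rule, which was set after seeing the data. Some genes that meet these rules are not reported here. Members and lists were chosen with earlier results of these data known. Alternatives were DESeq2 1.42.0, RLE factors, other filters, the second quantification, 4 libraries only and leaving out each library.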

Additional observations from a re-analysis of the deposited data

Results flagged for a closer look

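In 7 listed genes, chosen because both single-library log2 ratios of rescue to KO were past 2-fold, the ratio was below 0 without TNF and above 0 with TNF. For the chemokine gene Ccl5 it was -3.64 without and 3.06 with TNF, and for the complement gene Cfb it was -1.40 and 3.43. The guanylate-binding protein genes Gbp2 (-2.01 and 1.21) and Gbp5 (-3.94 and 1.15) did the same. So did the NF-kB cofactor gene Bcl3 (-1.10 and 1.03), the adaptor gene Traf1 (-1.33 and 1.55) and the gelatinase gene Mmp9 (-1.08 and 1.35). None of them passed the test over both treatments, and the difference between treatments was not tested. The share of all tested genes with such a change of sign was not counted, so the 7 are no result about these lists. Ccl5 had 2.62 and 768.84 CPM in rescue, against 33.87 and 91.93 CPM in KO, while several of the others were under 4 CPM in 1 or more libraries.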

How the results depend on the processing

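The count of 2601 called genes stayed within 1.5 times under DESeq2 (2476), RLE factors (2609), no filter (2530), 10 counts in all 4 libraries (2298), the second quantification (2484) and the 4 libraries alone (2820). Of the 2601, DESeq2 also called 2197. Leaving out 1 library gave 0 to 2683 calls, with 0 (edgeR) without either rescue library. By labels, edgeR called 0 and DESeq2 3. The 39 called nodes became 0 with the 4 libraries alone (10874 at an unadjusted p under 0.05 by limma), 24 with an offset of 1, 9 without a trend, 0 with precision weights and a mean psi of 0.05 to 0.95 (added after seeing the data; 2502 at an unadjusted p under 0.05), and 0 to 0 without 1 library. The 224 nodes 0.2 apart became 133 at 50 reads and 81 at a difference of 0.3, both chosen after seeing the data. Leaving out 1 library turned the sign of Ptbp3 (range -0.24 to 0.18; 0.18 without the library named KO and 0.04 without that named rescue with TNF). Without the library named KO with TNF it turned the sign of Saa3 (-3.33; range -3.33 to 7.60) and Mmp13 (-0.92; range -0.92 to 3.59). The cause was not tested. Of 73 named genes, those whose fold moved by over 1.5 times numbered 19 without the library named KO, 25 without KO with TNF, 10 and 9 without the rescue libraries, 1 without either parental library, 7 under DESeq2 and 8 of 72 in the second quantification. No further pairing was possible with 1 library per line and treatment, and the main model already held TNF as a block. Library totals in place of TMM gave 535 higher and 389 lower genes past 2-fold, with all genes shifted by 0.071 and 0.094.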
